A study of Homo sapiens with 9 samples.

Results

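HLF, DBP, TEF and NFIL3 are 4 related transcription factor genes, and their RNA was followed here in t(17;19) leukemia cells after disruption of a MEF2C enhancer. They were chosen by gene symbol in GENCODE release 44 and are 4 of the 62700 genes in the deposited tables. All 4 passed the filter on low counts, which kept 14436 genes. Their 20 annotated transcripts, 11 of them from HLF, are part of 252835 transcript rows.

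HLF, DBP and TEF form the proline and acidic amino acid-rich (PAR) family of basic leucine zipper (bZIP) factors, which bind DNA as homodimers or heterodimers of one another and activate transcription. NFIL3 (also called E4BP4) binds the same kind of sequence, lacks the PAR activation region and mostly represses, so that the group is often described as activators and a repressor sharing sites. In many tissues DBP, TEF and HLF follow the circadian clock, HLF marks hematopoietic stem cells, and NFIL3 is needed for natural killer and other innate lymphoid cells. In t(17;19) acute lymphoblastic leukemia (ALL) the bZIP region of HLF is joined to the activation domains of TCF3, and the fusion TCF3::HLF binds DNA through the HLF part.

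The libraries came from HAL-01, a B cell ALL line that carries t(17;19), in a derivative that stably expressed Cas9 and GFP. A lentiviral vector delivered sgRNA_96 or sgRNA_97, which make up the MEF2C-enhancer KO class, or the scrambled control guide SCR1, and cells were collected on day 13. Each guide had 3 libraries with the numbers 1, 3 and 4, so that 6 KO libraries were compared with 3 control libraries. All 9 share the line, its fusion and Cas9. The sources used here do not say whether replicates were separate cultures, so the p-values measure only the spread between these libraries. How many cells in each library were edited was not analysed here, and RNA per cell cannot be told apart from the share of cells of a kind in such bulk samples.

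Library totals ranged from 15212462 to 29777361 estimated counts. On the first principal component (22.11% of the variance) the KO libraries separated from the controls, and on the second (15.35%) sgRNA_96 replicate 1 and sgRNA_97 replicate 1 stood apart on opposite sides. All 10 markers of B lineage cells had a mean of at least 1 count per 1000000 counts (CPM). By edgeR 1 was called higher in the KO, DNTT (the terminal transferase of lymphoid precursors), and 0 lower, where 10.1% of all genes were called higher. DESeq2 called 2 higher and 1 lower, where it called 3246 of the 14436 genes in all. The summed level of the 10 spanned 4537 to 4733 CPM in SCR1 and 4819 to 5053 CPM in the KO, with no overlap. Ranges of single genes did not overlap for 20.3% of all genes tested. DNTT was the largest part of the sum, with means of 2072 CPM in SCR1 and 2473 CPM in the KO. IGLL1, the next largest, went the other way, from 923 to 813 CPM. The median log2 fold change of the 10 was -0.02, so the sum does not show a rise of the list as a whole. The T lineage (7 markers), erythroid (3) and hepatocyte (3) lists had none with a mean of at least 1 CPM. They had 4, 3 and 2 markers at 0 in every library. The myeloid list had 2 of 6 at that mean, MPO (the myeloperoxidase of granulocyte precursors) and CSF1R. MPO rose from 2.75 ± 0.164 CPM in SCR1 (SD, n = 3) to 5.82 ± 1.19 CPM in the KO (SD, n = 6; edgeR adjusted p = 0.000894). The summed myeloid markers spanned 19.0 to 21.7 CPM in SCR1 and 19.4 to 24.2 CPM in the KO. Of the 4 stromal markers PDGFRB alone reached that mean, and the list spanned 19.6 to 24.1 CPM in SCR1 and 17.4 to 20.9 CPM in the KO. What part any of these have in the values below was not tested.

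The sequence that ties the HLF family to this experiment is the motif targeted by the guides. The study lists a pair of guides to the HLF motif of the MEF2C enhancer under the names E.1 and E.2. Which of them is sgRNA_96 and which sgRNA_97 is not given in the sources used here. Both are shown 5′ to 3′ with the motif in capitals.
E.1: tagcaTTACATAAtacatgt
E.2: ttagcaTTACATAAtacatg
Each guide had 1 exact match in hg38, on the minus strand, at chr5:88825103-88825122 for E.1 and chr5:88825104-88825123 for E.2. They are offset by 1 base and followed by the PAMs GGG and TGG. The motif itself spans chr5:88825110-88825117, within an intron of MEF2C and 196 bases from its nearest annotated exon. The usual Cas9 cut, 3 bases from the PAM, falls 4 bases outside the motif for E.1 and 3 bases for E.2.
The surrounding 128 bases of the plus strand, chr5:88825050-88825177, show the context of the motif, again in capitals and here as its reverse complement.
MEF2C enhancer site: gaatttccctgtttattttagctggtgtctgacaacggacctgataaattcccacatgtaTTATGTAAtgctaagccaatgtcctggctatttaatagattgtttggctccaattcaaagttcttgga

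Whether the 4 genes carry the same letters at their own promoters was looked up in RefSeq promoter windows of hg38, which run from 250 bases before to 50 after a start. The windows matched were 2 for HLF, 1 for DBP, 2 for TEF and 2 for NFIL3. None held TTACATAA or TTATGTAA, which occurred in 0.886% of 35116 windows. None held the palindrome TTACGTAA either, which is its own reverse complement and occurred in 0.125%. No match says only that these letters are not in these windows.

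NFIL3 was the member that changed in the pooled comparison of enhancer KO with SCR1, where its RNA fell by 27.6%. In the SCR1 libraries NFIL3 (ENSG00000165030.4, chromosome 9 from 91409045 to 91423832, minus strand) was at 26.1, 29.2 and 20.8 CPM. It was at 17.1, 20.1 and 17.96 CPM with sgRNA_96 and at 20.1, 17.2 and 17.5 CPM with sgRNA_97. Every KO library lay below every control library, although the lowest control and the highest KO library were close. The means were 25.4 ± 4.24 CPM (SD, n = 3) and 18.3 ± 1.43 CPM (SD, n = 6). The log2 fold change was -0.47 (95% interval -0.67 to -0.26), with an adjusted p of 0.00313 in the quasi-likelihood test of edgeR. Ranges that did not overlap were found for 20.3% of all genes tested.

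Both guides gave NFIL3 nearly the same value. Against the same 3 control libraries the log2 fold change of NFIL3 was -0.46 ± 0.12 (SE) for sgRNA_96, with an edgeR adjusted p of 0.0206. It was -0.47 ± 0.12 (SE) for sgRNA_97, with an edgeR adjusted p of 0.0151. The direct comparison of sgRNA_97 with sgRNA_96 gave -0.02, with a 95% interval of -0.28 to 0.24. The call for NFIL3 in the pooled comparison held in each of 18 alternatives. The call for sgRNA_96 was lost without sgRNA_96 replicate 4 (edgeR adjusted p = 0.0646), SCR1 replicate 1 (0.0831) or SCR1 replicate 3 (0.0818). It was also lost with the gene length offset (edgeR adjusted p = 0.0764) and with limma on log2(TPM + 1) (0.123) or log2(TPM + 0.1) (0.119), and so held in 12 of 18 alternatives. That for sgRNA_97 was lost without sgRNA_97 replicate 3 (edgeR adjusted p = 0.0709), SCR1 replicate 1 (0.0636) or SCR1 replicate 3 (0.0583). It too held in 12 of 18, being lost with the gene length offset (edgeR adjusted p = 0.0623) and with both limma settings (0.0932 and 0.0904).

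**Figure D1:**
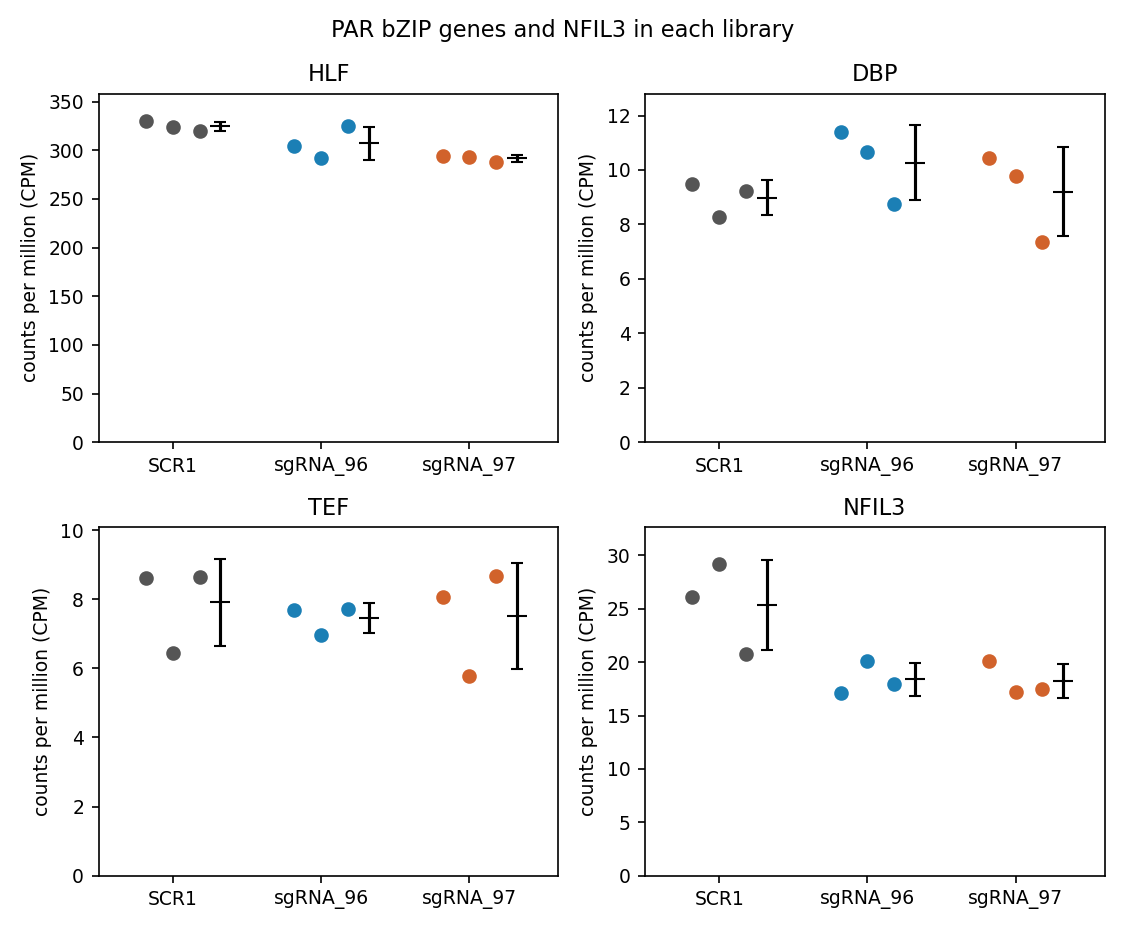
CPM of the 4 genes (y axis, from 0) in each library, by guide (x axis). Points are libraries in the order of replicates 1, 3 and 4, and the bars beside them give mean and SD (n = 3). All 6 KO libraries of NFIL3 lie below the lowest control library at 20.8 CPM, whereas the groups overlap for HLF, DBP and TEF.

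HLF, the gene whose 3′ part is in the fusion, was the most abundant member and changed little. HLF (ENSG00000108924.14, chromosome 17 from 55264960 to 55325187, plus strand) was at 330, 324 and 320 CPM in the SCR1 libraries. It was at 305, 292 and 325 CPM with sgRNA_96 and at 295, 293 and 288 CPM with sgRNA_97. Of the 6 KO libraries 5 lay below every control library, and sgRNA_96 replicate 4 lay within the control range. The means were 325 ± 4.79 CPM (SD, n = 3) and 300 ± 13.7 CPM (SD, n = 6). The log2 fold change was -0.12 (95% interval -0.21 to -0.03). Its edgeR adjusted p of 0.0657 missed the threshold of 0.05.

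The HLF value sat near the threshold and its call depended on the tool and on single libraries. With DESeq2 the adjusted p for HLF was 0.0331 at the same log2 fold change of -0.12. Without sgRNA_96 replicate 4 the fold change was -0.14 and the edgeR adjusted p 0.0172, and without sgRNA_96 replicate 1 the edgeR adjusted p was 0.0477. By guide, the log2 fold change of HLF was -0.08 ± 0.05 (SE) for sgRNA_96, with an edgeR adjusted p of 0.321. It was -0.15 ± 0.05 (SE) for sgRNA_97, with an edgeR adjusted p of 0.0461. The latter passed in 7 of 18 alternatives and was lost on leaving out any 1 of the 3 sgRNA_97 or 3 SCR1 libraries, with edgeR adjusted p-values from 0.0732 to 0.143. The difference between the guides was -0.07, with a 95% interval of -0.18 to 0.03.

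The fusion has no row of its own in the tables, so reads from its HLF part and from an intact HLF allele cannot be told apart in the HLF sum. In the same way the TCF3 sum pools reads from the TCF3 part of the fusion and from an intact TCF3 allele. TCF3, the fusion's other partner, fell from 432 ± 19.5 CPM in SCR1 (SD, n = 3) to 365 ± 31.5 CPM in the KO (SD, n = 6; edgeR adjusted p = 0.00986). That call held in 14 of 18 alternatives. Among those that lost it were the gene length offset (edgeR adjusted p = 0.209), limma on log2(TPM + 1) (0.202) and leaving out SCR1 replicate 4 (edgeR adjusted p = 0.0721). MEF2C, the gene that holds the targeted motif, had a mean of 552 ± 13.4 CPM (SD, n = 3) in SCR1 and 509 ± 22.1 CPM (SD, n = 6) in the KO, with an edgeR adjusted p of 0.0620. Its adjusted p was 0.0269 with DESeq2, and 0.0143 with edgeR without sgRNA_97 replicate 1.

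DBP, the PAR factor best known as an output of the clock, did not pass the test. DBP (ENSG00000105516.11, chromosome 19 from 48630030 to 48637379, minus strand) was at 9.47, 8.27 and 9.22 CPM in SCR1. It was at 11.4, 10.7 and 8.73 CPM with sgRNA_96 and at 10.5, 9.79 and 7.36 CPM with sgRNA_97. The KO values lay on both sides of the control range. The log2 fold change was 0.11 (95% interval -0.16 to 0.38, edgeR adjusted p = 0.585), an interval that runs from 0.896-fold to 1.30-fold. SPHK2 on the opposite strand overlaps 688 bases of DBP, and whether counting used strand is not given in the sources used here.

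TEF, which shares the PAR and bZIP regions with DBP and HLF, did not pass the test either. TEF (ENSG00000167074.15, chromosome 22 from 41367333 to 41399326, plus strand) was at 8.62, 6.44 and 8.65 CPM in SCR1. It was at 7.69, 6.96 and 7.70 CPM with sgRNA_96 and at 8.07, 5.79 and 8.67 CPM with sgRNA_97. The groups overlapped throughout. The log2 fold change was -0.09 (95% interval -0.38 to 0.20, edgeR adjusted p = 0.691).

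By edgeR, 1 of the 4 genes passed the threshold in the pooled comparison, where 20.7% of all genes tested did, and 10.6% of all genes were called lower. For sgRNA_96 it was 1 of 4 against 11.2% of all genes, and for sgRNA_97 2 of 4 against 15.1%. Between the guides it was 0 of 4 by edgeR, DESeq2 and limma, with none at an unadjusted p under 0.05, against 0.0208% of all genes. A count of 4 genes is too small to set apart from these shares.

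**Figure D2:**
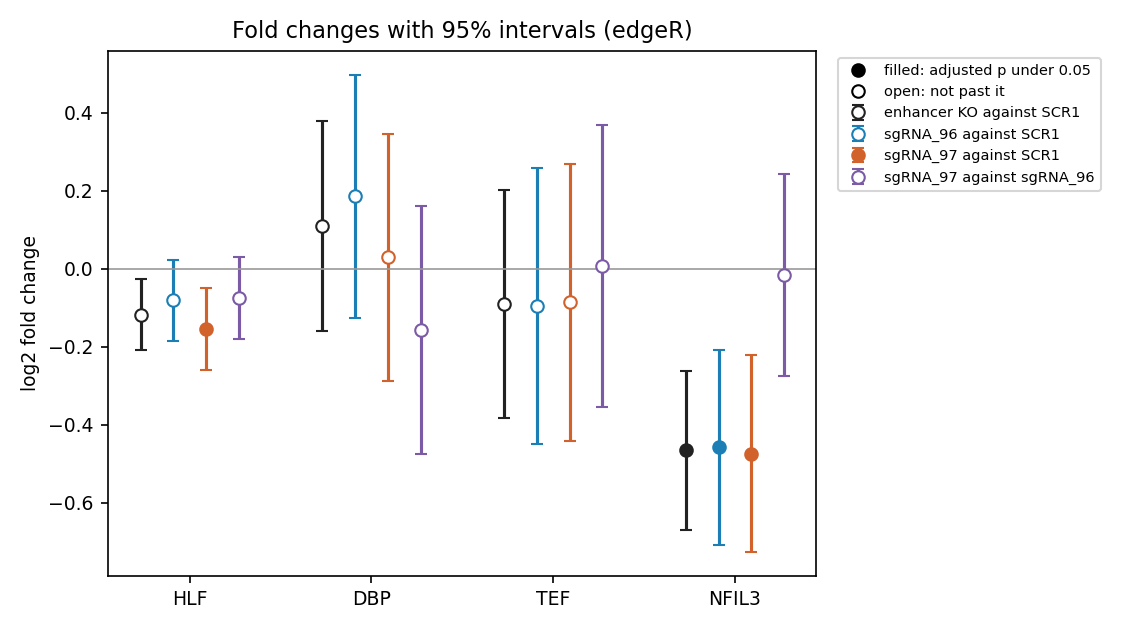
Log2 fold change of each gene (y axis) in the pooled and the by-guide comparisons (colors), with 95% intervals from edgeR, and filled points where the adjusted p was under 0.05. NFIL3 is filled in all 3 comparisons with SCR1 and HLF with sgRNA_97 only, where the interval runs from -0.26 to -0.05.

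Levels of different genes were compared per length, as TPM, the number of transcripts per 1000000. HLF stood highest in every library, at 132 ± 3.995 TPM (SD, n = 3) in SCR1 and 120 ± 7.59 TPM (SD, n = 6) in the KO. Its share of the summed TPM of the 4 genes was 81.4 ± 0.985% (SD, n = 3) in SCR1 and 81.7 ± 1.45% (SD, n = 6) in the KO. The level and share of HLF include any reads from the HLF part of the fusion, and so are not those of an intact allele alone. NFIL3 followed at 17.3 ± 3.17 TPM (SD, n = 3) in SCR1 and 12.6 ± 0.921 TPM (SD, n = 6) in the KO. DBP was at 10.5 ± 2.28 TPM (SD, n = 3) and 11.9 ± 1.51 TPM (SD, n = 6), and TEF was lowest at 2.40 ± 0.343 TPM (SD, n = 3) and 2.30 ± 0.324 TPM (SD, n = 6).

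The order held with no overlap of neighbouring genes in SCR1, where the lowest NFIL3 library had 14.002 TPM and the highest DBP library 12.7 TPM. In the KO libraries NFIL3 and DBP overlapped, and the ratio of NFIL3 to DBP within a library ran from 0.899 to 1.22, compared with 1.30 to 2.50 in SCR1. DBP per length rests on the division of its reads among 5 transcripts of unequal length. DBP-205 was listed at 0 in 6 of the 9 libraries. TEF was carried by TEF-201 (97.7% of TEF TPM over all libraries), with TEF-202 above 0 in SCR1 replicate 3 alone. NFIL3 has 1 annotated transcript.

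Of the 11 HLF transcripts 4 had counts and 7 were listed at 0 in all 9 libraries. A comparison of HLF RNA with and without the last coding exon (chr17:55320664-55320876) was planned because the 3′ part is in the fusion. The 3 transcripts without that exon were all listed at 0, so that share was 0 in every library and no comparison could be made. The 4 transcripts with counts all hold the exon and differ in their first exons and in how far they run on past the coding end. That distance is 4311 bases for HLF-201, 2659 for HLF-210, 2113 for HLF-208 and 543 for HLF-204.

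HLF-204 also begins its last exon 3 bases upstream of the others. The 30 bases of the plus strand at chr17:55320646-55320675 (hg38) show this junction, with the 3 extra exon bases in capitals.
HLF acceptor: tctgtaactaatgagCAGgatgacaagtac
Salmon divides reads among such overlapping rows by likelihood, and the error of that division is not part of the tests below.

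HLF-210 held 45.4% of HLF TPM over all libraries, HLF-208 29.0%, HLF-204 13.1% and HLF-201 12.6%. In these rows too, reads from the HLF part of the fusion cannot be told apart from those of an intact HLF allele. The levels and shares of HLF transcripts given here are therefore not a measure of intact HLF transcripts alone. HLF-201, the longest, was at 14.7, 15.3 and 14.96 TPM in SCR1, 14.6, 15.3 and 16.6 TPM with sgRNA_96 and 16.3, 15.8 and 16.5 TPM with sgRNA_97. All 3 sgRNA_97 libraries lay above the controls, while those of sgRNA_96 lay on both sides.
HLF-204, the shortest, was at 19.0, 18.4 and 18.2 TPM in SCR1, 18.5, 11.3 and 13.8 TPM with sgRNA_96 and 18.2, 12.9 and 15.6 TPM with sgRNA_97. Replicate 1 of both guides lay at the level of the controls and the others below it.
HLF-208 spanned 32.4 to 46.5 TPM in SCR1 and 26.9 to 38.6 TPM in the KO. HLF-210 was at 54.3, 61.1 and 62.1 TPM in SCR1, 52.4, 58.2 and 64.5 TPM with sgRNA_96 and 52.5, 50.5 and 50.5 TPM with sgRNA_97. All 3 sgRNA_97 libraries of HLF-210 lay below the controls, while those of sgRNA_96 lay on both sides. The share of all transcripts that separate in this way by guide, as HLF-201 and HLF-210 did with sgRNA_97, is not given here.

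No HLF transcript passed the test in the pooled comparison. By edgeR and by limma 0 of 4 were called and by edgeR none had an unadjusted p under 0.05, where 0.633% of the 54988 transcripts tested were called. The log2 fold change was 0.04 ± 0.04 (SE) for HLF-201, -0.16 ± 0.08 (SE) for HLF-210, -0.26 ± 0.14 (SE) for HLF-208 and -0.34 ± 0.17 (SE) for HLF-204. The edgeR adjusted p-values lay between 0.612 and 0.978. NFIL3-201, the single row of NFIL3, has the same counts as the gene, so its test is not separate evidence. In the transcript fit its log2 fold change was -0.50, with an edgeR unadjusted p of 0.00239. Adjusted over 54988 transcripts that p was 0.139, and the row was not called. In the gene fit the edgeR unadjusted p was 0.000181, adjusted over 14436 genes.

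The share of HLF TPM in HLF-201 was 11.0, 11.3 and 11.7% in SCR1, 11.8, 13.7 and 12.5% with sgRNA_96 and 13.8, 13.7 and 14.2% with sgRNA_97. All 6 KO libraries lay above all 3 controls, the nearest by a narrow margin. For how many transcripts over all genes the share separates the groups in this way is not given here, so this separation has no background beside it. The means differed by 1.94 percentage points, and the exact two-sided permutation test gave p = 0.0119, the smallest that 84 arrangements allow. This share took the place of the planned one after the values were seen. It was 1 of 8 share tests, of 4 transcripts in TPM and in estimated counts, and with Benjamini-Hochberg adjustment over these 8 exact tests p was 0.0952. In estimated counts the difference was 2.81 percentage points (exact permutation p = 0.0357, adjusted 0.143). Exact permutation p-values for the shares of the other 3 transcripts ran from 0.345 to 0.929.

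**Figure D3:**
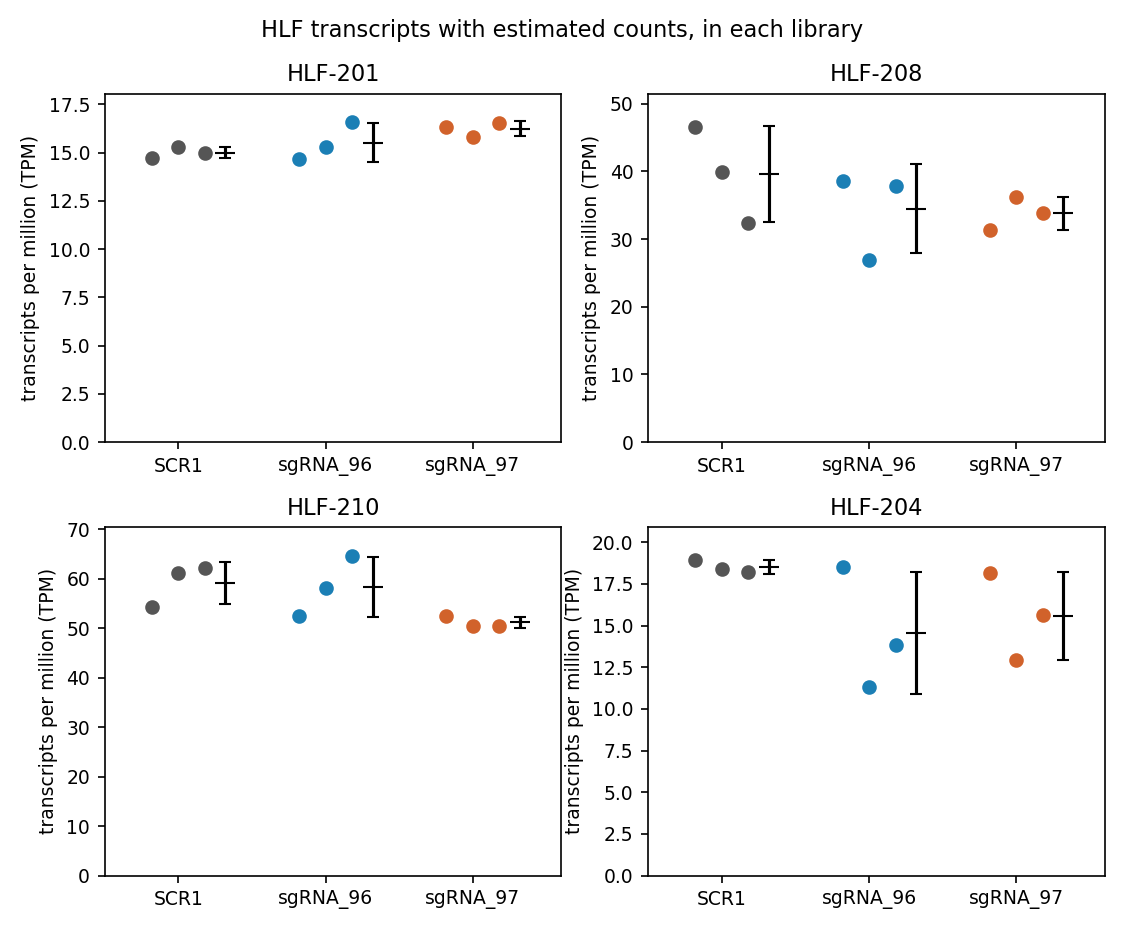
TPM of the 4 HLF transcripts with counts (y axis, from 0) in each library, by guide (x axis). Points are libraries in the order of replicates 1, 3 and 4, with mean and SD (n = 3) beside them. HLF-204 is tight in SCR1, from 18.2 to 19.0 TPM, and spread in the KO, from 11.3 to 18.5 TPM.

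Genes whose levels ran most like each member over the 9 libraries were sought by Pearson correlation of log2 CPM among 12960 genes with a mean of at least 1 CPM. For HLF these were E2F3 (r = 0.987), an activator of S phase genes, EFCAB5 (0.970) and CFDP1 (0.970). For NFIL3 they were FAM111B (r = 0.965), ANKRD33B (0.958) and FADS1 (0.956), a fatty acid desaturase. For DBP they were MUC20-OT1 (r = 0.950) and the unnamed genes ENSG00000261884 and ENSG00000290737, and for TEF they were ARHGAP35 (r = 0.941), KAZN (0.898) and GALNT14 (0.898). Between members the highest r was 0.619, for HLF and NFIL3. The 9 points share their groups and library depth, and the best of many genes is high by selection, so these values are a description.

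Clock genes, the regulators above DBP, TEF and HLF in other tissues, mostly did not pass the test. Of 20 listed genes 18 were tested, and by edgeR 2 were called higher and 0 lower, where 10.1% of all genes were called higher and 10.6% lower. DESeq2 gave the same counts, and without sgRNA_96 replicate 1 edgeR called 1 lower. The median log2 fold change was -0.02 compared with 0.00 over all genes. NR1D2 (REV-ERBβ), a clock repressor, rose from 17.7 ± 1.01 CPM in SCR1 (SD, n = 3) to 26.1 ± 3.23 CPM in the KO (SD, n = 6; edgeR adjusted p = 0.000839). RORA, which activates the elements that REV-ERB proteins repress, rose from 2.20 ± 0.614 CPM in SCR1 (SD, n = 3) to 4.09 ± 0.604 CPM in the KO (SD, n = 6; edgeR adjusted p = 0.00591). With limma on log2(TPM + 1) the adjusted p of RORA was 0.0502.

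Among the other bZIP families the AP-1 and BATF genes had the lowest median, -0.38 over 8 tested of 10, with 3 called lower by edgeR, where 10.6% of all genes were, and 0 called higher by edgeR or DESeq2. JUN fell from 6.86 ± 1.67 CPM in SCR1 (SD, n = 3) to 3.67 ± 0.381 CPM in the KO (SD, n = 6; edgeR adjusted p = 0.00115), and was called in 18 of 18 alternatives. FOS, its partner in AP-1, had a log2 fold change of -0.75 (edgeR adjusted p = 0.0397) and was called in 7 of 18. FOSL2 had -0.14 (edgeR adjusted p = 0.0489) and was called in 6 of 18. Across the alternatives the number of AP-1 and BATF genes called lower ran from 1 to 4.

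Of 20 CREB and ATF genes 17 were tested, with a median of 0.04, and ATF3 was called lower and XBP1 and CREBZF higher, CREBZF with a direction that turned in 3 of 18 alternatives. These 3 calls among 17 genes lie near the 20.7% called over all genes, and they ran from 1 (1 higher and 0 lower) without SCR1 replicate 1 to 6 (3 higher and 3 lower) without sgRNA_96 replicate 1. XBP1, a regulator of the unfolded protein response and of plasma cells, rose from 658 ± 16.4 CPM in SCR1 (SD, n = 3) to 806 ± 27.4 CPM in the KO (SD, n = 6; edgeR adjusted p = 0.000101). ATF3, a stress response factor, fell from 11.8 ± 1.58 CPM in SCR1 (SD, n = 3) to 8.40 ± 0.914 CPM in the KO (SD, n = 6; edgeR adjusted p = 0.00703), a call lost without SCR1 replicate 1 (edgeR adjusted p = 0.0754) and with the gene length offset (0.198), limma on log2(TPM + 1) (0.244) and limma on log2(TPM + 0.1) (0.237). CREBZF had a log2 fold change of 0.13 (edgeR adjusted p = 0.0274), and was at -0.01 with the gene length offset.

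The C/EBP genes, which bind sites related to those of the PAR factors, had a median of -0.19 and 0 of 5 tested of 6 called by edgeR or DESeq2. At an unadjusted p under 0.05 there were 2, CEBPA (log2 fold change -0.32) and CEBPE (0.82), and limma called CEBPE, both named here after their values were seen. CEBPE was low, at 0.966 ± 0.459 CPM in SCR1 (SD, n = 3) and 1.75 ± 0.495 CPM in the KO (SD, n = 6). CEBPE was called in 3 of 18 alternatives. Across them the number of C/EBP genes called higher ran from 0 to 1, and the number called lower from 0 to 1. The MAF, NRF and BACH genes had a median of -0.10 and 0 of 9 tested of 13 called by edgeR, DESeq2 or limma. With the gene length offset 1 was called higher. At an unadjusted p under 0.05 by edgeR there were 4 (MAFF, MAFG, NFE2L1 and BACH2, also named after their values were seen). Over all genes 20.7% passed the adjusted threshold by edgeR. The share at an unadjusted p under 0.05 cannot be smaller and is not given here. The unadjusted counts of both lists are therefore no result about these lists.

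**Figure D4:**
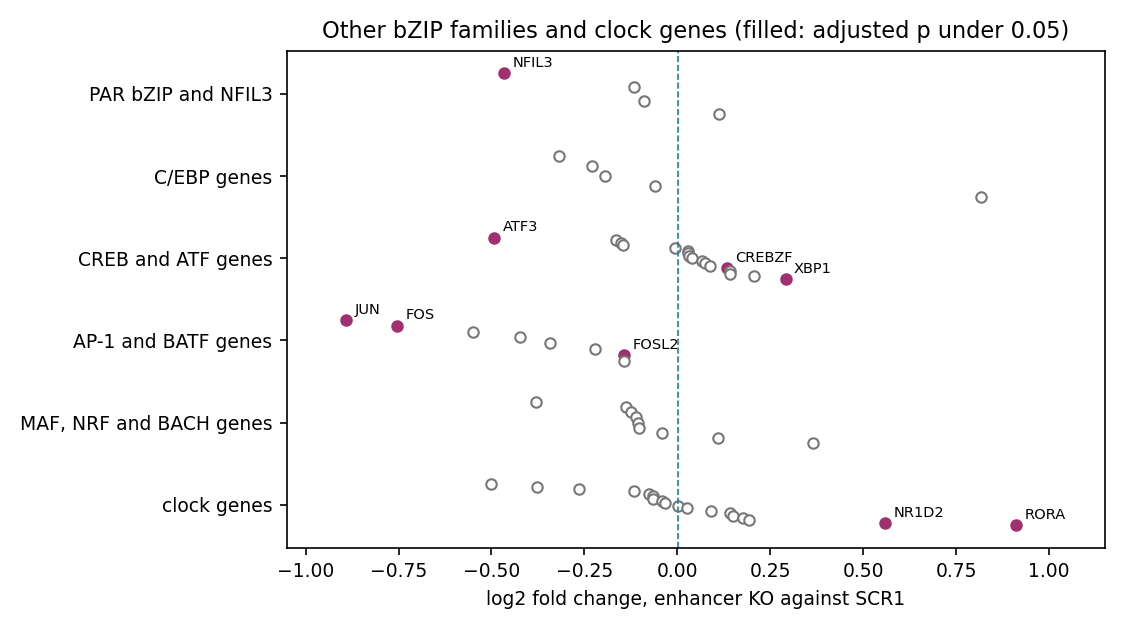
Log2 fold change of enhancer KO against SCR1 (x axis) for the tested genes of 6 groups (y axis). Each point is a gene, filled and named where the edgeR adjusted p was under 0.05, and the dashed line is the median of all genes. JUN, FOS and FOSL2 lie left of the line and NR1D2 and RORA right of it.

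Genes described elsewhere as targets of PAR factors or NFIL3 were in part below the filter on low counts. Of 11 listed 6 were tested, with a median of -0.14, and by edgeR and by DESeq2 0 were called higher and 1 lower, where edgeR called 10.6% of all genes lower. The number called lower ran from 0 without SCR1 replicate 1 or 4 to 3 without sgRNA_96 replicate 1. POR, the electron donor of cytochrome P450 enzymes, fell from 37.2 ± 2.09 CPM in SCR1 (SD, n = 3) to 30.8 ± 3.03 CPM in the KO (SD, n = 6; edgeR adjusted p = 0.0191). That call was lost without SCR1 replicate 1 (edgeR adjusted p = 0.124) or SCR1 replicate 4 (0.0631), and with the gene length offset (0.114), limma on log2(TPM + 1) (0.152) and limma on log2(TPM + 0.1) (0.150). Of 7 genes described as targets of TCF3::HLF 4 were tested, with a median of 0.00. By edgeR 1 was called higher and 0 lower, where 10.1% of all genes were called higher and 10.6% lower. DESeq2, which called 3246 of the 14436 genes, called 1 higher and 2 lower, MEF2C and BCL2. Without sgRNA_97 replicate 1 edgeR also called 2 lower. A count of 4 genes is too small to set apart from these shares. LMO2, a hematopoietic transcription cofactor, rose from 104 ± 4.30 CPM in SCR1 (SD, n = 3) to 154 ± 4.001 CPM in the KO (SD, n = 6; edgeR adjusted p = 6.77e-07) and a call in 18 of 18 alternatives. BCL2 had a log2 fold change of -0.11 that missed the threshold by edgeR (adjusted p = 0.0805) and passed it by DESeq2 (adjusted p = 0.0423). MYC had 0.11 and passed by neither (edgeR adjusted p = 0.178, DESeq2 adjusted p = 0.152).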

How the data were processed

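The authors sequenced TruSeq libraries, mapped the reads to hg38 by STAR and estimated transcript abundance by Salmon 1.10.1 (version also in the submitters' processing notes). They deposited estimated counts per transcript, without normalization, and TPM, which is scaled for transcript length and depth. Of the counts above 0, 87.8% were not whole. All transcript identifiers matched GENCODE release 44.

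Counts were summed per gene, rounded, filtered by filterByExpr (minimum count 10) and scaled by TMM. The main test was edgeR's quasi-likelihood F test (edgeR 4.0.16, R 4.3.3), adjusted by Benjamini-Hochberg over all 14436 genes or 54988 transcripts, at a threshold of 0.05. The pooled comparison used 6 KO and 3 SCR1 libraries, and comparisons by guide used a single fit with 3 groups. The study named DESeq2, run here (1.42.0) as an alternative beside limma 3.58.1 on log2(TPM + 1) and log2(TPM + 0.1). CPM is counts over the TMM-scaled library size. Between replicates of a group, chi-square over its degrees of freedom was 4.31 to 8.59, well above sampling noise, so no library repeated another. Estimated counts set the precision for counting only. The tests were checked on simulated counts.

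The members and lists were chosen with earlier results of these data known. The lists were clock, C/EBP, CREB and ATF, AP-1 and BATF, and MAF, NRF and BACH genes, described targets, and cell type markers. Named were the members, TCF3, MEF2C, up to 4 list genes past the threshold with a mean of at least 1 CPM, and the 3 genes most like each member. BCL2, MYC, CSF1R and PDGFRB were named after their values were seen. The planned share of HLF without the last coding exon was 0 throughout and was replaced by the share of each HLF transcript, chosen after the data were seen, as was leaving out both libraries that stood apart.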

Additional observations from a re-analysis of the deposited data

Results flagged for a closer look

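In the 6 KO libraries the highest or lowest value was compared with its neighbour for the CPM of the 4 genes and the TPM of the 4 HLF transcripts, 8 quantities in all. No library stood apart by Dixon's 95% limit for the gap over the range, a limit that chance passes in about 1 of 20 groups. The nearest was HLF in sgRNA_96 replicate 4, at 325 CPM and a gap of 0.548. No difference between the guides passed the test for any of the 4 genes.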

How the results depend on the processing

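NFIL3 kept its direction and its call in the pooled comparison under 18 of 18 alternatives, with log2 fold changes from -0.59 to -0.36 and adjusted p-values from 7.01e-06 to 0.0374. HLF kept its direction in 18 of 18 (-0.15 to -0.10) and was called in 3: with DESeq2 (-0.12) and without sgRNA_96 replicate 1 or 4 (leave-outs -0.14 to -0.10). DBP and TEF were not called in any. With both libraries that stood apart left out, an alternative chosen after seeing the data, HLF had -0.12 (edgeR adjusted p = 0.0806) and NFIL3 -0.47 (0.00426).

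Pooled gene calls, 2984, fell to 1240 and 1246 with limma on log2(TPM + 1) and log2(TPM + 0.1), to 1524 with the gene length offset, and ran from 1503 to 3547 without single libraries. For sgRNA_96 (1615 calls) these were 448, 451, 662 and 760 to 2027, and for sgRNA_97 (2181 calls) 706, 706, 924 and 987 to 2501. Between the guides (3 calls) they were 0, 0, 1 and 1 to 5, with 106 without the filter and 8 with DESeq2. Transcript calls, 348, were 223 with limma and ran from 55 to 401 without single libraries. The causes were not tested.

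With the replicate number as a block, transcript calls were 171 and calls between guides 1. Over all genes tested the numbers showed no pairing of the libraries: correlations of deviations for same-numbered libraries lay between -0.066 and 0.055. Such correlations cannot exclude a pairing that acts on some genes only. In the replicate block fit the log2 fold change of HLF for sgRNA_97 was -0.15 (edgeR adjusted p = 0.0566), a call lost, and that of FOSL2 was -0.14 (0.0573).

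Values near 0 changed sign, with no call. DBP for sgRNA_97 ran from -0.068 to 0.17 without single libraries and was -0.065 without both libraries apart. DBP between guides was 0.10, 0.10 and 0.12 with limma (pseudocounts 1 and 0.1) and the length offset. TEF for sgRNA_97 ran from -0.21 to 0.080 without single libraries. TEF between guides was -0.0037 and -0.010 with limma, -0.0068 with the replicate block, -0.023 without both libraries apart and -0.11 to 0.17 without single libraries. NFIL3 between guides ran from -0.088 to 0.055 without single libraries. CREBZF was -0.0042 and -0.0043 with limma and -0.0067 with the length offset. The depth of 15212462 to 29777361 counts limits DBP and TEF most, at 110 or more counts a library.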
